A study of Mus musculus with 4 samples.

Results

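Core pluripotency genes were followed in cultures of mouse embryonic stem cell-derived cardiomyocytes that had been transfected with a small interfering RNA (siRNA). The 10 genes were Pou5f1, Nanog, Sox2, Klf2, Klf4, Klf5, Esrrb, Zfp42, Tcl1 and Fbxo15, of 20886 named genes with a probe on the array, and they were chosen by name. All 10 had a probe whose RefSeq accession led to the symbol, 11 probes in all because Nanog had 2. Every one of the 11 probes was well above background on all 4 arrays, and none was saturated or marked as an outlier. Each group held 2 samples of CGR8, a mouse embryonic stem cell line, differentiated to cardiomyocytes and kept in low-glucose DMEM with 2% serum. The control group (siScr) received a scrambled siRNA and the other group (siErbB4) an siRNA against Erbb4, a neuregulin receptor of heart muscle, each for 48 hours. Total RNA of each sample went to its own 1-colour Agilent array.

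The labels limit what the groups stand for. Groups were read from the titles and the transfection entry. The free-text description of each siErbB4 sample instead mentions the scrambled siRNA, and the source name of siErbB4 replicate 2 reads ErbB5. The growth protocol gives 6 or 24 hours of incubation without saying which sample had which. The Erbb4 probe reached the well-above-background flag on 1 array only (processed signals 9.02 and 11.9 in siScr, 2.83 and 15.0 in siErbB4), so it does not check the knockdown. Whether replicates were separate cultures is not stated, so a p-value here reflects the spread between these 4 samples, which may be technical. All 4 arrays sat on 1 slide with 1 scan time, replicate 1 of both groups at positions 3 and 4 and replicate 2 of both at positions 1 and 2, so replicate number and place on the slide cannot be told apart. All 12 listed cardiomyocyte markers, such as Myh6 and Tnnt2, were well above background on every array. So were all 10 core pluripotency genes and all 8 listed fibroblast markers, and 64.8% to 68.5% of all probes had this flag on an array. The flag alone therefore does not check the cardiomyocyte label.

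Embryonic stem cells stay undifferentiated through a network of transcription factors that bind one another's genes. POU5F1 (OCT4) and SOX2 bind DNA as partners, NANOG, the KLF factors and ESRRB hold the naive state, and the cytokine LIF feeds the network through STAT3. The network is shut down as cells become cardiomyocytes, although several members have other uses, such as Sox2 in neural cells, Klf2 and Klf4 in endothelium and Klf5 in smooth muscle and epithelium. In bulk RNA, fewer cells of a type and less RNA per cell cannot be told apart, so a level given here does not say how many cells carried it.

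Most of the core pluripotency genes stood highest on a single array, siErbB4 replicate 1. Levels are given as log2 scaled signal, the log2 processed signal minus the 75th percentile of the array's probes, and each level is compared only with the same probe on other arrays. The 8 genes other than Nanog and Klf5 all had their highest value on siErbB4 replicate 1, where 23.6% of all 20726 features tested did. Against siScr replicate 1, siErbB4 replicate 1 was higher at 8 of 10 genes (49.8% of all features), with a median over the 10 of 0.76, beside a median of -0.0015 over all features. At 6 of the 10 this difference was 0.58 or more, against 4.15% of all features. Of the 8 genes highest on siErbB4 replicate 1, all but Klf4 were also lowest on siScr replicate 1. At those genes the comparison within replicate number 1 therefore sets the highest array against the lowest. Between siErbB4 replicate 2 and siScr replicate 2, 7 of 10 genes were higher (44.7% of all features), the median was 0.051, beside -0.020 over all features, and 0 of 10 genes reached 0.58 (1.95% of all features). The difference was positive within both replicate numbers at 7 of 10 genes (28.1%) and larger within replicate number 1 at 9 of 10 (53.9%). Summed over the 10 genes, the scaled signal in multiples of the 75th percentile was 10.4 and 11.6 in siScr and 16.7 and 12.4 in siErbB4.

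**Figure D1:**
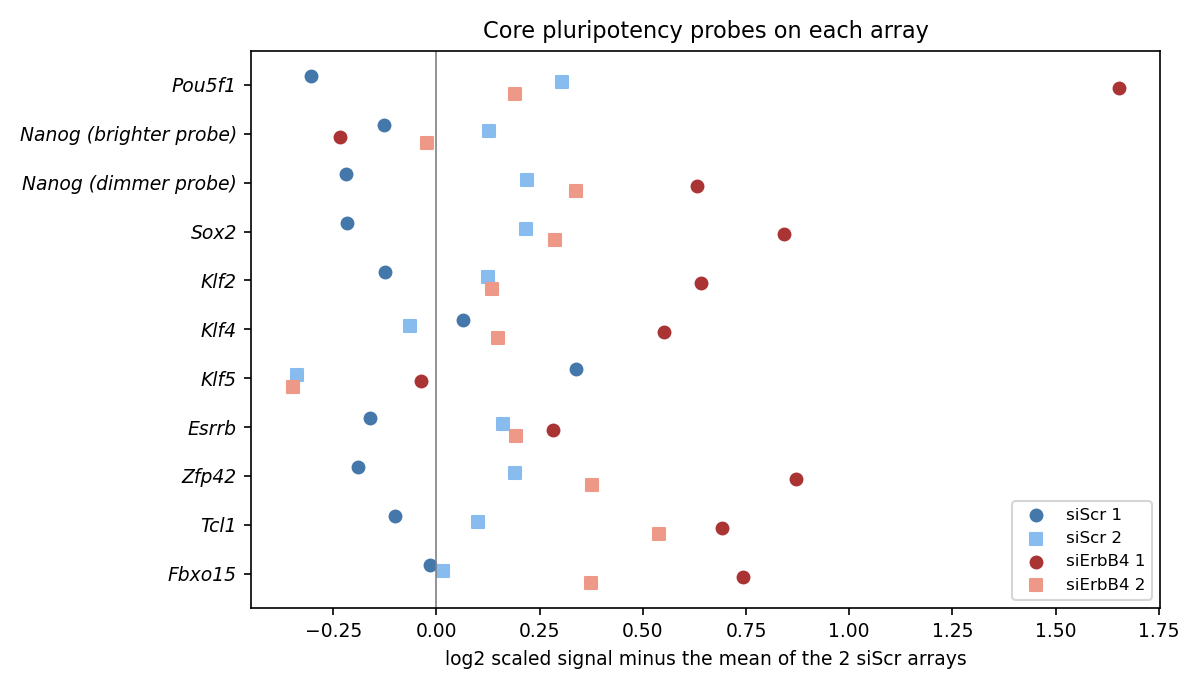
Log2 scaled signal of each of the 11 probes on each array, minus the mean of the 2 siScr arrays for that probe, with circles for replicate 1 and squares for replicate 2. The dark red circles (siErbB4 1) lie furthest right for 9 of the 11 probes, and Pou5f1 reaches the widest range, 1.96 from its lowest to its highest array.

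Between the groups as a whole, no core pluripotency gene passed the test. With limma and Benjamini-Hochberg adjustment over all features, 0 of 20726 (0%) had an adjusted p under 0.05 in either direction, and 366 (1.77%) passed 0.05 before adjustment. Among the 10 genes, 0 were called and 2, Tcl1 and Fbxo15, had an unadjusted limma p under 0.05. The log2 difference (siErbB4 minus siScr) was positive at 8 of 10 genes, beside 47.2% of all features, with a median of 0.47 beside -0.013. At 7 of the 10 genes the groups did not overlap and siErbB4 was the higher, as at 13.1% of all features, and at 0 of 10 it was the lower without overlap (15.9%), where 29% of all features had no overlap in either direction. Without siErbB4 replicate 1 the median was 0.19, with 8 of 10 still positive. Without siScr replicate 1 the median was 0.381. For a single value, 2 arrays against 2 allow a smallest two-sided exact permutation p of 0.333.

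**Figure D2:**
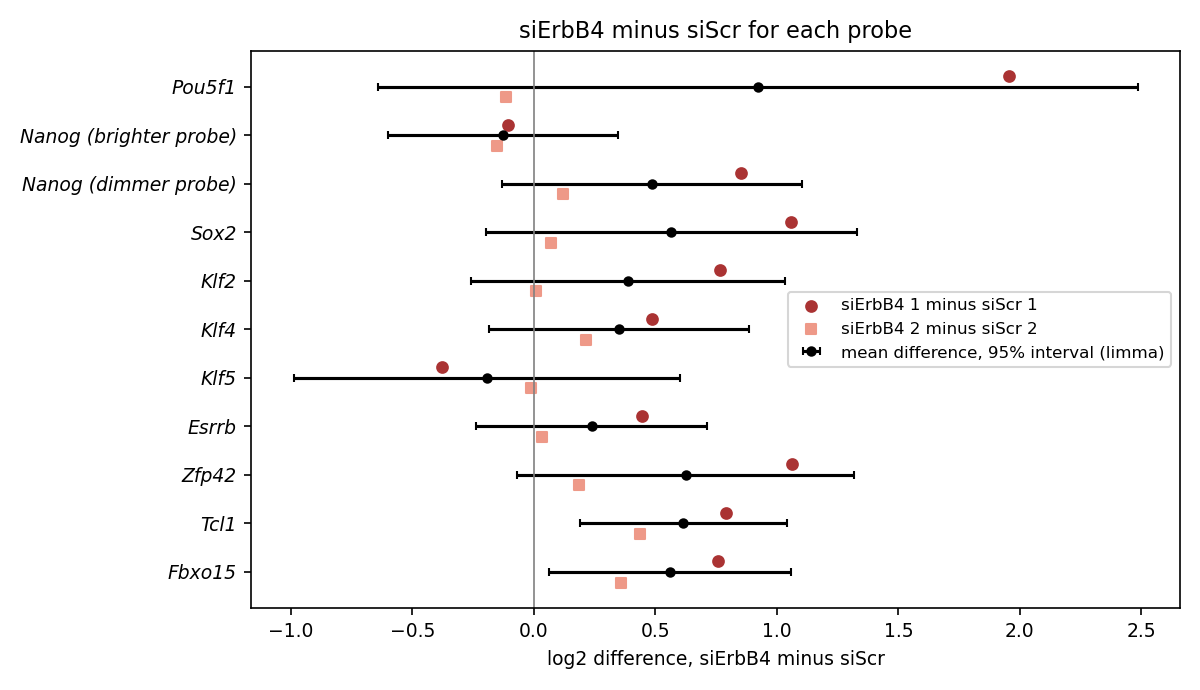
Log2 difference siErbB4 minus siScr for each probe, with the 95% interval from limma fitted over all 25690 kept probes (black), and the difference within replicate number 1 (red circles) and 2 (pink squares) as single pairs of arrays. The circle lies to the right of the square for every probe but that of Klf5, and the intervals of Tcl1 and Fbxo15 are the ones that do not reach 0.

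Pou5f1, the POU-domain transcription factor at the centre of the network, varied most among the 10 genes. Its processed signal was 258 and 348 in siScr and 953 and 344 in siErbB4. On the scaled log2 scale these were -1.94 and -1.34 in siScr and 0.015 and -1.45 in siErbB4. The groups overlapped, because siErbB4 replicate 2 lay between the siScr arrays while siErbB4 replicate 1 stood 2.55-fold above the next highest array. The group difference was 0.92 (SE 0.57, 95% interval -0.65 to 2.49), 0.19 without siErbB4 replicate 1 and 1.65 without siErbB4 replicate 2. Within replicate number 1 the difference was 1.96, larger than at 99.9% of features, and within replicate number 2 it was -0.11.

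The genes whose pattern over the 4 arrays lay nearest to that of Pou5f1 were sought by the Euclidean distance between mean-centred log2 values. The nearest of 14992 other named genes was Pou5f1-rs4, listed by RefSeq as a transcribed pseudogene and named as a sequence related to Pou5f1, at a distance of 0.087. Its log2 scaled signal was -3.08 and -2.59 in siScr and -1.18 and -2.66 in siErbB4. A copy of this kind resembles its parent gene, so a probe for one may read RNA of the other, and their signals cannot be told apart here. The next were Neurog1, a neural bHLH factor (0.31), Fan1, a DNA repair nuclease (0.32), Zic2, a zinc finger factor of epiblast and neural plate (0.38), and Vwa2 (0.48). All except Vwa2, which was well above background on 3 arrays, were well above it on all 4. Neurog1 had log2 scaled signals of -6.57 and -6.13 in siScr and -5.04 and -6.315 in siErbB4. Vwa2 had -6.84 and -5.90 in siScr and -5.215 and -6.26 in siErbB4. On the arrays other than siErbB4 replicate 1 both lay near the dimmest flagged signals. Their likeness to Pou5f1 thus rests mainly on siErbB4 replicate 1. By the same distance Sox2 ranked 41, Zfp42 51, Klf2 119, Fbxo15 160 and Tcl1 252, while Esrrb ranked 1073, Nanog 10310 and Klf5 11292. With 4 arrays, such a ranking describes these arrays alone.

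**Figure D3:**
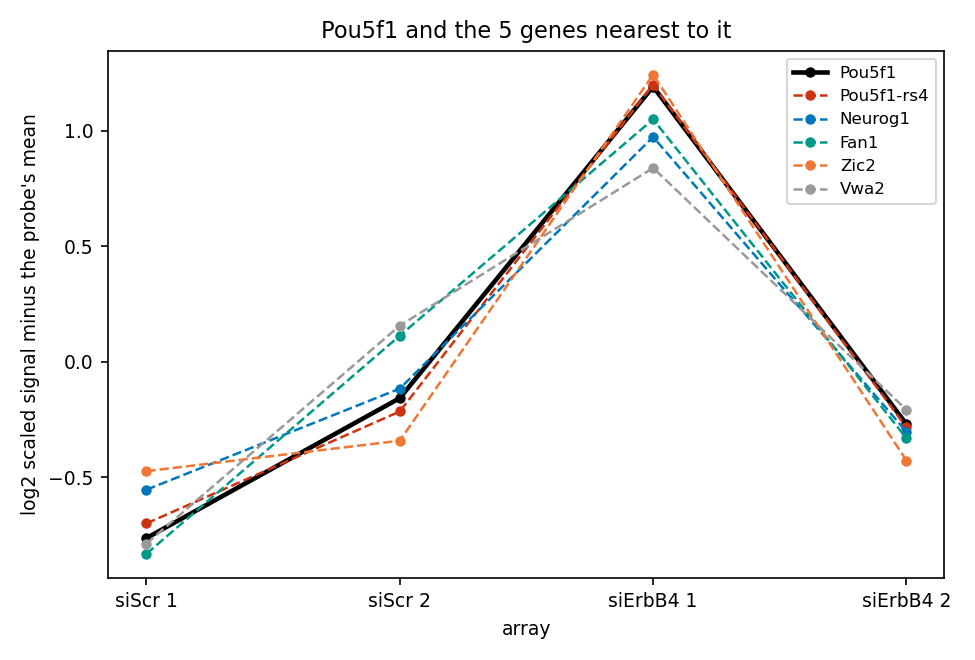
Log2 scaled signal minus the mean of the probe over the 4 arrays, for Pou5f1 (black) and the 5 named genes at the smallest Euclidean distance from it (dashed). Each peaks on siErbB4 1, and the line of Pou5f1-rs4 runs along that of Pou5f1 at a distance of 0.087.

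Sox2, the HMG-box partner of POU5F1, was likewise highest on siErbB4 replicate 1 and lowest on siScr replicate 1. Its log2 scaled signal was -2.82 and -2.39 in siScr and -1.76 and -2.32 in siErbB4. The groups did not overlap, although siErbB4 replicate 2 exceeded siScr replicate 2 by only 0.070. The group difference was 0.56 (SE 0.28, 95% interval -0.20 to 1.33). It was 0.288 without siErbB4 replicate 1 and 0.347 without siScr replicate 1. Sox2 is also a neural gene, and 5 of 8 listed neural markers were tested. Their summed scaled signal was 19.6 and 10.6 in siScr and 13.4 and 8.66 in siErbB4, and without Tubb3, the brightest, 6.38 and 4.98 in siScr and 4.79 and 5.44 in siErbB4, with Map2 and Dcx not well above background on any array. The part of neural cells in the Sox2 signal was not tested.

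Nanog, the homeodomain factor of the naive state, was read by 2 probes under the same accession, and they differed in direction. The brighter probe, which stood for the gene in the test, had log2 scaled signals of -0.76 and -0.51 in siScr and -0.87 and -0.66 in siErbB4. It was lowest on siErbB4 replicate 1, the array on which most of the other genes were highest, and its groups overlapped. The dimmer probe had -2.34 and -1.90 in siScr and -1.49 and -1.78 in siErbB4, with no overlap and its highest value on siErbB4 replicate 1. The group difference was -0.13 (SE 0.17) for the brighter probe and 0.49 (SE 0.22) for the dimmer one, and in the fit over all kept probes limma called 0 of 25690. With the mean of the probes the Nanog difference was 0.18. The files give no probe sequences, so which transcript or copy each probe reads was not determined.

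Promoter letters were read for 8 of the 10 genes from RefSeq windows of 250 bases before to 50 after a transcription start (assembly GRCm38.p6), 11 windows in all, of which the 2 of Nanog overlap each other. No window of Klf5 or Fbxo15 entered the search. Windows of the core genes on 1 chromosome were left out by choice, while the shares over all windows kept that chromosome. A window was searched on both strands for the octamer ATGCAAAT bound by POU5F1, the SOX motifs ACAAAG and ACAAT, the ESRRB motif TCAAGGTCA and the KLF motifs GGGTGTGG and GGGCGTGG, and no match in these windows overlapped another. Nanog and Zfp42 are shown because each holds letters of more than 1 of the network's motifs, and the brighter Nanog probe and the Zfp42 probe stood at opposite ends of their ranges on siErbB4 replicate 1. The Nanog window at chr6:122707315-122707614 on the plus strand has the SOX letters ACAAT and the KLF letters GGGCGTGG in capitals. The Zfp42 window at chr8:43306960-43307259 on the minus strand has the octamer and the KLF letters GGGTGTGG, both in reverse complement, in capitals. Each is written 5′ to 3′ in the direction of its gene.
Nanog: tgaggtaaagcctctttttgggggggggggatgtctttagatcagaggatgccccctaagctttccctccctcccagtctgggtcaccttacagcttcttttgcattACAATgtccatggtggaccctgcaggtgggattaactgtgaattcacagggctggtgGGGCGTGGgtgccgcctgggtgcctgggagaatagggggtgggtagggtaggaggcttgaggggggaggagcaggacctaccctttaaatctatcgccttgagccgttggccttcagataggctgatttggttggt
Zfp42: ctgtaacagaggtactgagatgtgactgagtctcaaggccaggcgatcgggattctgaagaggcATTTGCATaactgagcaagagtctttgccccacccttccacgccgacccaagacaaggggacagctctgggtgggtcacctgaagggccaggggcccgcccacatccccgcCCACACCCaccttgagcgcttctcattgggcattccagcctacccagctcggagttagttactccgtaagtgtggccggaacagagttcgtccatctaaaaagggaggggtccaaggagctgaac
Only exact matches were counted. The octamer was found in 1 of the 11 windows, beside 1.74% of 32851 windows of the same length. The Nanog letters ttttgcat, shortly before ACAAT, differ from the reverse complement of the octamer by 1 base and were therefore not counted. ACAAT was in 4 of 11 windows (31.0% of all), those of Esrrb (1 of 2), Nanog (both) and Pou5f1 (1 of 2), ACAAAG in 1, that of Sox2 (18.7%), GGGCGTGG in 2, both of Nanog (5.33%), GGGTGTGG in 1 (3.56%) and TCAAGGTCA in 0 (0.423%). These matches describe the windows and say nothing about binding.

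Zfp42, which encodes the zinc finger protein REX1 and is a widely used marker of undifferentiated cells, was higher in both siErbB4 arrays. Its log2 scaled signal was 0.65 and 1.03 in siScr and 1.71 and 1.22 in siErbB4, with no overlap. The group difference was 0.62 (SE 0.25, 95% interval -0.072 to 1.32), and 0.378 without siErbB4 replicate 1. It was 1.06 within replicate number 1 and 0.19 within replicate number 2.

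The 3 Krüppel-like zinc finger factors did not share one pattern. Klf2 had log2 scaled signals of 1.501 and 1.75 in siScr and 2.27 and 1.76 in siErbB4, so that siErbB4 replicate 2 lay 0.010 above siScr replicate 2. Klf4 had 1.01 and 0.88 in siScr and 1.499 and 1.097 in siErbB4, again without overlap. Klf5 had -0.41 and -1.08 in siScr and -0.78 and -1.09 in siErbB4, with the highest value on siScr replicate 1 and overlapping groups. The group differences were 0.39 (SE 0.23) for Klf2, 0.35 (SE 0.19) for Klf4 and -0.19 (SE 0.29) for Klf5. Without siErbB4 replicate 1 they were 0.134 for Klf2, 0.151 for Klf4 and -0.348 for Klf5. Without siErbB4 replicate 2 they were 0.641, 0.552 and -0.0387. Klf5 turned to 0.144 without siScr replicate 1 and was -0.531 without siScr replicate 2.

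Klf2 and Klf4 are also expressed by endothelial cells, and the endothelial markers were read beside them. Of 8 listed endothelial markers 6 were tested, with Emcn not well above background on any array. Their summed scaled signal was 3.64 and 4.76 in siScr and 3.57 and 3.72 in siErbB4. Without Kdr, the brightest, the sum was 0.551 and 0.413 in siScr and 0.456 and 0.382 in siErbB4. The median over the 6 was -0.12 within replicate number 1, where Klf2 was at 0.76 and Klf4 at 0.49. The order of arrays seen for Klf5, from siScr replicate 1 down to siErbB4 replicate 2, was also that of the summed smooth muscle and fibroblast markers, with or without the brightest gene of each. The smooth muscle sum, over 5 of 6 genes, was 541 and 248 in siScr and 429 and 241 in siErbB4. Of those 5 genes 4 were lower in replicate 2, while Smtn was higher by 0.41 (SE 0.11). The epithelial and endoderm sum, 58.6 and 67.4 in siScr and 64.8 and 76.0 in siErbB4, had the reverse order. Without its brightest gene, Krt18, that sum was 22.5 and 27.8 in siScr and 20 and 31 in siErbB4. The part of these cells in the Klf2, Klf4 and Klf5 signals was not tested.

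Esrrb, the orphan nuclear receptor of the naive network, had the smallest positive group difference. Its log2 scaled signal was 0.48 and 0.81 in siScr and 0.93 and 0.84 in siErbB4. The groups did not overlap, siErbB4 replicate 1 lay 0.090 above the next array and siScr replicate 1 was the lowest. The difference was 0.24 (SE 0.17, 95% interval -0.24 to 0.71). It was 0.0775 without siScr replicate 1 and 0.399 without siScr replicate 2.

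Tcl1 and Fbxo15 were the genes at which siErbB4 replicate 2 exceeded siScr replicate 2 most. Tcl1, which encodes an activator of AKT kinases, had log2 scaled signals of -3.09 and -2.89 in siScr and -2.30 and -2.45 in siErbB4. Fbxo15, an F-box protein gene switched on by POU5F1 and SOX2 in embryonic stem cells, had -0.48 and -0.45 in siScr and 0.28 and -0.087 in siErbB4. Neither pair of groups overlapped. Within replicate number 1 the differences were 0.79 for Tcl1 and 0.76 for Fbxo15, and within replicate number 2 they were 0.44 and 0.36, larger than at 96.5% and 95.1% of features. The group difference was 0.61 (SE 0.15, 95% interval 0.19 to 1.04) for Tcl1 and 0.56 (SE 0.18, 95% interval 0.060 to 1.06) for Fbxo15, with a limma adjusted p of 1.00 for each.

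Of the core pluripotency genes, Klf5 and Nanog were those that differed between the replicates without overlap, and neither passed the test. Between replicate 2 and replicate 1, taken over both groups, limma called 1085 of 20726 features (5.23%), 600 higher (2.89%) and 485 lower (2.34%) in replicate 2. No feature was called without the filter on dim probes, without siScr replicate 1 or without siScr replicate 2, and 73 were called without siErbB4 replicate 2. Of the 10 core pluripotency genes 0 were called, a count that 10 genes cannot set apart from this background, and 1 had an unadjusted limma p under 0.05, against 23% of all features. That gene was Klf5, lower in replicate 2 in both groups, with a log2 difference of -0.49 (SE 0.16) and a limma adjusted p of 0.168. Nanog was higher in replicate 2 in both groups by its brighter probe, with 0.23 (SE 0.12). No overlap was thus seen at 2 of 10 genes, 1 higher and 1 lower, beside 55.5% of all features, 29.4% higher and 26% lower. The difference was positive at 3 of 10 genes (53% of all features).

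At most of the other genes the replicates differed in opposite directions in the groups. Replicate 2 minus replicate 1 was positive in siScr and negative in siErbB4 at 7 of the 10 genes, a pattern found at 17.8% of all features. For Pou5f1 it was 0.61 in siScr and -1.46 in siErbB4, for Sox2 0.44 and -0.55, and for Zfp42 0.38 and -0.49. Klf2 gave 0.25 and -0.51, Esrrb 0.32 and -0.090, Tcl1 0.20 and -0.15, and Fbxo15 0.030 and -0.37. Klf4 was lower in replicate 2 in both groups, with -0.13 in siScr and -0.40 in siErbB4. The median over the 10 genes was 0.25 in siScr and -0.38 in siErbB4, beside 0.041 and -0.0054 over all features. With 1 array in each cell of this layout the difference between the groups has no test.

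**Figure D4:**
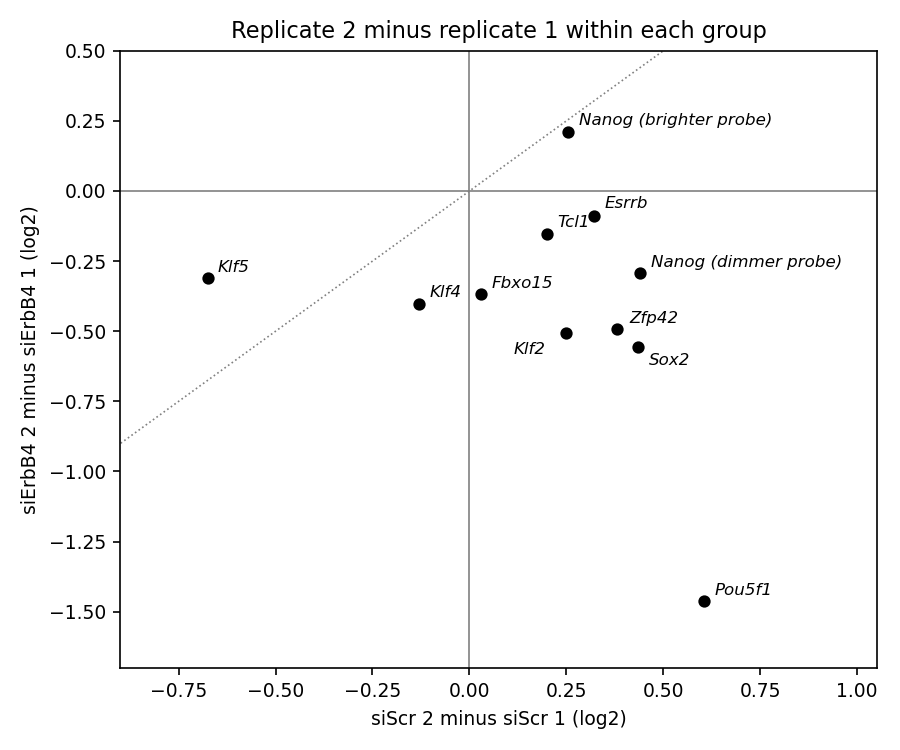
Replicate 2 minus replicate 1 within siScr (x axis) and within siErbB4 (y axis), in log2, 1 point per probe, with the dotted line where both would be equal. Most points lie in the lower right, positive in siScr and negative in siErbB4, with Pou5f1 furthest out at 0.61 and -1.46.

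Other genes of undifferentiated stem cells were mostly highest on the same array. Of 26 listed genes, each of them tested, 25 had a positive group difference (47.2% of all features). Limma called 0 of the 26 in either direction, and 6 had an unadjusted limma p under 0.05 (1.77% of all features). The median over the 26 was 0.45 between the groups, 0.69 within replicate number 1 and 0.23 within replicate number 2. On siErbB4 replicate 1, 22 of 26 were highest, beside 23.6% of all features. The lowest p belonged to Dnmt3l, a cofactor of DNA methyltransferases, and L1td1, an RNA-binding protein of stem cells. Dnmt3l had log2 scaled signals of -0.45 and -0.33 in siScr and 0.61 and 0.20 in siErbB4, a difference of 0.80 (SE 0.20). L1td1 had 0.79 and 0.93 in siScr and 1.98 and 1.39 in siErbB4, a difference of 0.83 (SE 0.25). Between the replicates, limma called 1 of the 26, Tbx3, which was higher in replicate 2 by 1.33 (SE 0.22, adjusted p 0.0467), beside 5.23% of all features called. It was not called without the filter on dim probes or without either siScr array. Tbx3 also serves cardiac conduction tissue.

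The LIF and STAT3 pathway, which maintains the network in culture, was read next, with 1 of 9 listed genes highest on siErbB4 replicate 1. Over all features the share was 23.6%, and 9 genes cannot set the count apart from it. All 9 were tested, 2 with a positive group difference (47.2% of all features) and 7 with a negative one, and the median was -0.071. Lif gave -0.34 (SE 0.23) and the kinase gene Pim1 0.22 (SE 0.17), and 0 genes were called by limma, with 0 at an unadjusted p under 0.05. Between the replicates 1 of the 9 was called, Socs3, the feedback inhibitor of STAT3 signalling, lower in replicate 2 by a log2 difference of -1.03 (SE 0.12, limma adjusted p 0.0277), beside 5.23% of all features called. This call too was absent without the dim-probe filter and without either siScr array.

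Genes of later epiblast and of germ cells were read because germ cells also use Pou5f1 and Nanog. Of 9 listed genes of primed epiblast and primitive streak 5 were tested and Mixl1, Gsc and Mesp1 were not well above background on any array. The streak gene T was well above background on some arrays but not on all, and it was not among those tested. The tested 5 had a median of 0.89 within replicate number 1 and 0.16 within replicate number 2. Fgf5, a marker of primed epiblast, had a group difference of 0.57 (SE 0.22), and Otx2, a factor of the exit from the naive state, 0.57 (SE 0.38). Of 8 germ cell markers 7 were tested and Nanos2 was not well above background on any array. Their median was 0.875 within replicate number 1 and 0.12 within replicate number 2, with Mael at 0.74 (SE 0.17) and Sycp3 at 0.77 (SE 0.18) between the groups. Limma called 0 genes of either list in either comparison, and 2 germ cell markers had an unadjusted p under 0.05 between the groups (1.77% of all features). The summed scaled signal of the germ cell markers was 1.1 and 1.37 in siScr and 1.37 and 1.34 in siErbB4. Nanos3, the brightest, was the member with a negative group difference (-0.094), and the other 6 summed to 0.421 and 0.515 in siScr and 0.724 and 0.55 in siErbB4, highest on siErbB4 replicate 1. Their part in the Pou5f1 and Nanog signals was not tested.

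Markers of other cells in the culture were set beside these values. Fibroblast markers, 8 of 8 tested, summed to 87.8 and 32.3 in siScr and 70.1 and 30.2 in siErbB4. Limma called 4 of the 8 between the replicates, all lower in replicate 2: Fn1 by a log2 difference of -1.05, Col1a1 by -2.27, Postn by -1.89 and Pdgfra by -0.73, with adjusted p of 0.0224 to 0.0400, beside 5.23% of all features called. Like all calls between the replicates, those in this paragraph were absent without the dim-probe filter and without either siScr array. Smooth muscle markers followed, with 3 of 5 called and lower, while Tnni3 and Ryr2 of the 12 cardiomyocyte markers were called and higher in replicate 2, by 0.97 and 0.69. On siErbB4 replicate 1, where the pluripotency genes stood highest, the fibroblast median was -0.72 against siScr replicate 1 and the cardiomyocyte median was -0.010. Within replicate number 2 these were -0.089 and -0.086. The fibroblast sum was highest on siScr replicate 1, so the -0.72 is set against that array. On siErbB4 replicate 1 the fibroblast sum (70.1) was still above both replicate 2 arrays (32.3 and 30.2). Epithelial and endoderm markers, 9 of 10 tested with Apoa1 not well above background on any array, summed to 58.6 and 67.4 in siScr and 64.8 and 76.0 in siErbB4. They include Epcam and Cdh1, surface proteins that stem cells also carry, with group differences of 0.37 (SE 0.15) and 0.37 (SE 0.16). All 9 were higher in replicate 2, with a median of 0.502, and 1 was called, the fetal albumin-like gene Afp, by 0.65 (limma adjusted p 0.0462). Blood markers, 4 of 6 tested, summed to 7.74 and 8.04 in siScr and 6.96 and 6.88 in siErbB4, and without Itgam, the brightest, to 1.41 and 2.11 in siScr and 1.17 and 1.87 in siErbB4. Of the 4, limma called Lyz2, a lysozyme gene of macrophages, which was higher in replicate 2 by 3.24 (adjusted p 0.0189), while Fcer1g, not called, had -1.74 (SE 0.52). The cardiomyocyte sum was 1620 and 1950 in siScr and 1580 and 1810 in siErbB4. Whether the makeup of the cultures accounts for the pluripotency signal was not tested.

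**Figure D5:**
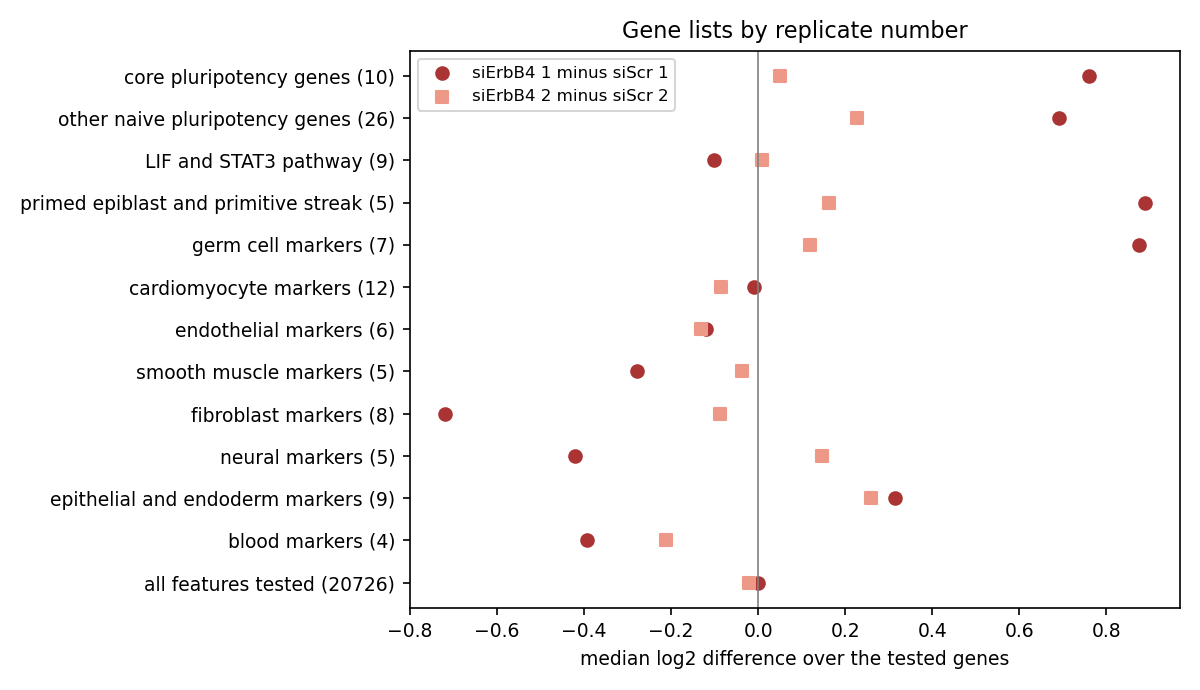
Median log2 difference siErbB4 minus siScr over the tested genes of each list (their number in brackets), within replicate number 1 (circles) and 2 (squares), each from a single pair of arrays. The 4 lists with the circle furthest right are core pluripotency (0.76), other naive pluripotency (0.69), primed epiblast and germ cell genes, and the fibroblast circle lies furthest left at -0.72. The summed fibroblast signal was highest on siScr 1 and next highest on siErbB4 1.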

How the data were processed

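RNA of 4 samples was measured on 1-colour (Cy3) arrays with labelled copies of 200 ng of RNA. The submitters' processing notes name Agilent Feature Extraction, version 10.7.1.1. Per the file headers, the deposited intensity is a processed signal, corrected for background and for spatial trend on each array alone. The deposited log2 values of the authors' table equalled the log2 processed signal minus the 75th percentile of each array (correlation 1, largest difference 0.003275), so scale, centring and direction were known; its column medians were -3.81, -3.83, -3.83 and -3.86.

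Control spots (1377 of 44397) and outlier spots (131 to 179 per array) were left out, 0 spots were saturated, and spots of a probe were averaged. The 75th percentile was 878 to 989, with 64.8% to 68.5% of probes flagged well above background; precision is limited by the number of arrays. Probes were named through unversioned RefSeq accessions (GRCm38.p6 table; 27508 of 39429 named). A probe was kept (25690) if, in either group, both arrays flagged it well above background, and the brightest probe stood for a gene or unnamed accession, giving 14993 named and 5733 unnamed features. The groups, and the replicate numbers of the titles, were each compared with limma 3.58.1 (R 4.3.3, two-sided, Benjamini-Hochberg over all features, threshold 0.05, 2 residual degrees of freedom). The fit was also run on simulated arrays with independent errors. Those lack the correlation of 0.679 between the deviations of same-numbered arrays seen here, so that run does not check the fit under such a correlation. Intervals are 95% intervals of limma's estimate. Alternatives were normexp (offset 50), quantile normalization, the deposited table, other filters, the mean of probes, a block and each array left out.

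The genes and lists were chosen with earlier results of these data known. Named genes are all 10 core genes and, per list and comparison, up to 4 called genes or else the 2 with the lowest p; not all named by the rule are reported here. Genes given beyond it, and list sums without the brightest gene, were chosen after their values were seen.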

Additional observations from a re-analysis of the deposited data

Results flagged for a closer look

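At 7 genes the replicate difference (replicate 2 minus replicate 1) was positive in siScr and negative in siErbB4, so that the groups moved in opposite directions. The difference between the groups was not tested, since each group has 1 pair of arrays, and 17.8% of all features had the same signs. The log2 replicate difference in siScr minus that in siErbB4 was 2.07 for Pou5f1, 0.99 for Sox2, 0.874 for Zfp42 and 0.755 for Klf2. It was 0.411 for Esrrb, 0.398 for Fbxo15 and 0.352 for Tcl1. By arithmetic this equals the siErbB4 minus siScr difference within replicate number 1 minus that within replicate number 2. It is therefore the contrast already described above and not a separate observation. At 6 of these 7 genes siErbB4 replicate 1 lay 0.15 (Tcl1) to 1.35 (Pou5f1) above the next highest array, and for Esrrb it lay 0.090 above.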

How the results depend on the processing

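The siErbB4 minus siScr count of called features was 0 under all 11 alternatives, with limma, and the lowest adjusted p was 0.0829 with the replicate block. The replicate numbers are shared by 2 pairs of arrays only; the deviations of same-numbered arrays from their group means correlated at 0.679 across features, and with the replicate block 0 features were called and 1547 had an unadjusted p under 0.05. The median over the core pluripotency genes was 0.191 to 0.666 with arrays left out, lowest without siErbB4 replicate 1, and 0.421 to 0.473 under the other alternatives. Nanog turned to 0.179 with the mean of the probes and Klf5 to 0.144 without siScr replicate 1 (-0.531 to 0.144 with arrays left out); the other 8 genes kept a positive difference under all 11 alternatives. For replicate 2 minus replicate 1, the count of called features was 1872 with normexp, 0 without a filter on dim probes, where 32388 features were tested and 4649 had an unadjusted limma p under 0.05, and 0 to 1540 with arrays left out, where fewer samples entered the fit and a lone array was assumed to vary like the others (0 without siScr replicate 1 or siScr replicate 2, with 5280 and 2688 at an unadjusted p under 0.05, and 73 without siErbB4 replicate 2). The count was 956 with quantile normalization, 1084 with the deposited table and 1047 with the mean of the probes. With only probes well above background on all 4 arrays it was 1458, and with the group as a block 1518. The median over the core genes was -0.51 to 0.295 with arrays left out, negative without siScr replicate 1 and positive without siErbB4 replicate 1. With arrays left out, this difference ran from negative to positive at 7 genes: Pou5f1 -1.41 to 0.549, Sox2 -0.589 to 0.47, Klf2 -0.512 to 0.253, Esrrb -0.106 to 0.337, Zfp42 -0.587 to 0.475, Tcl1 -0.371 to 0.419 and Fbxo15 -0.548 to 0.21, each lowest without siScr replicate 1 and highest without siErbB4 replicate 1. Reversals without another array were 0.038 for Zfp42 and 0.0114 for Fbxo15 (siScr replicate 2) and -0.195 for Tcl1 (siErbB4 replicate 2). The cause of the other changes was not tested. The single slide allowed no block by slide.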
